A study of Mus musculus with 6 samples.

Results

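The Myc and Max network is a set of transcription factors that share the dimerization partner Max. Its 8 members Myc, Max, Mxd1, Mxd3, Mxd4, Mxi1, Mnt and Mga were taken by gene symbol from a table of 54532 genes measured by RNA-seq in primary mouse bone-marrow-derived macrophages (BMDMs). Each symbol matched exactly 1 gene, and all 8 members passed the filter on low values and are among the 12755 genes tested. The BMDMs came from wild-type C57BL/6 mice and were grown with L929-conditioned medium. They were left untreated, exposed to LPS at 100 ng/ml over 2 h, or pretreated with metformin (5 mM) for 6 h before the same LPS exposure (Met + LPS), with 2 libraries (A and B) in each of the 3 groups. LPS, a lipopolysaccharide of Gram-negative bacteria, is sensed through TLR4, and metformin is an antidiabetic drug that activates AMP-activated protein kinase. No group with metformin alone was analysed here, so differences between Met + LPS and LPS are those of pretreated, stimulated cells. The methods state that the BMDMs were plated in duplicate, and the labels name no separate animals, so the p-values measure the spread between 2 libraries, which may be technical.

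Myc binds DNA only as a dimer with Max, at E-box sequences such as CACGTG, and recruits histone acetyltransferase complexes that promote transcription of genes for ribosome production, nucleotide synthesis and cell growth. The Mxd proteins, Mxi1 and Mnt dimerize with Max on the same sequences and recruit Sin3 and histone deacetylases, so that they repress, whereas Mga joins Max to a Polycomb complex. In the myeloid lineage, Myc is known for its part in proliferation driven by growth factors and Mxd1 for its rise during terminal differentiation.

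The hexamer CACGTG was looked for in RefSeq promoter windows of build GRCm38.p6, each running from 250 bases before to 50 bases after an annotated start. The hexamer is its own reverse complement, so both strands were read together. Windows were matched by symbol for 7 of the 8 members, which left Myc without a window. Of these 7 genes, 3 (Max, Mxd4 and Mnt) held the hexamer, compared with 12.2% of the tested genes that have a window and 7.15% of all 32851 windows of this length. The stretches around the hexamer are shown because Max, Mxd4 and Mnt changed in both comparisons below, each is written 5′ to 3′ on the strand of its gene, and capitals mark the hexamer. A match describes letters in the window and not a bound site.
Max, chr12:76962222-76962275, minus strand: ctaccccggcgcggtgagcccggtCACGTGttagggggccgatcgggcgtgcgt
Mxd4, chr5:34187900-34187953, minus strand: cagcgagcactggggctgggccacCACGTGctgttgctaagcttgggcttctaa
Mnt, chr11:74830777-74830830, plus strand: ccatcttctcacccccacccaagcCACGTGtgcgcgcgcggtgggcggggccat
The hexamer began 3 bases upstream of the annotated start in Max, 219 bases upstream in Mxd4 and 123 bases upstream in Mnt.

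The levels are in TPM, read counts per length of gene brought to an equal sum in each library, which allows genes to be compared with each other. TPM times exon length gave whole numbers of reads (within 0.05 reads) for 96.2% to 96.5% of the values above 0 in a library, and these reads summed to between 25457008 and 30762753 per library. The macrophage markers Adgre1 and Csf1r were at 1224 TPM or more in every library. The summed level of 7 macrophage markers was 43710 to 45600 TPM in the untreated, 34526 to 35264 TPM in the LPS and 28763 to 28884 TPM in the Met + LPS libraries. Lyz2 made up most of this sum, averaging 34912, 26835 and 21292 TPM in these groups. Adgre1 averaged 1543, 1717 and 1358 TPM and Csf1r 1891, 1325 and 1259 TPM. Cd68 averaged 6029, 4777 and 4783 TPM and Itgam 62.7, 53.8 and 43.2 TPM. Mertk averaged 52.9, 21.5 and 13.7 TPM and Fcgr1 165, 165 and 74.4 TPM. The summed markers of T cells, B cells, dendritic cells and fibroblasts stayed at or below 3.18 TPM in each library, with the defining B cell gene Ms4a1 at no more than 3 reads. The B cell marker Cd79b averaged 2.55, 1.36 and 0.586 TPM in the untreated, LPS and Met + LPS libraries, with at most 29 reads. The 6 neutrophil markers summed to 27.7 to 30.9 TPM, 24.5 to 26.2 TPM and 40.8 to 42.4 TPM in the same order of groups. Ly6g was at 0 in 5 libraries and at 1 read in the other, and Camp was at or below 0.596 TPM. The other markers were present: Elane averaged 16.3, 8.64 and 15.6 TPM and Mpo 2.29, 1.48 and 2.56 TPM. S100a8 averaged 5.52, 5.90 and 8.53 TPM and S100a9 4.90, 9.08 and 14.3 TPM. The part of other cells in the results was not tested, and in bulk RNA fewer cells of a type and less RNA per cell cannot be told apart.

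In untreated BMDMs, the network was led by Max and its repressive partners. Max was highest at 71.7 ± 0.866 TPM (SD, n = 2), followed by Mnt at 64.5 ± 3.57, Mxd4 at 38.1 ± 0.906, Mga at 31.6 ± 0.825, Myc at 17.9 ± 0.905, Mxi1 at 16.2 ± 0.392, Mxd1 at 8.39 ± 0.364 and Mxd3 at 2.50 ± 0.469 TPM. No neighbours in this order overlapped between their libraries. After LPS the order was Max, Mga, Mxd1, Myc, Mxd4, Mxi1, Mnt and Mxd3, in which Mga and Mxd1 overlapped, as did Mxd4 and Mxi1. In Met + LPS it was Max, Mga, Myc, Mxd1, Mxi1, Mnt, Mxd4 and Mxd3, and Mga and Myc overlapped. Mnt therefore moved from the second to the seventh place with LPS, while Myc took the third place with metformin pretreatment.

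**Figure D1:**
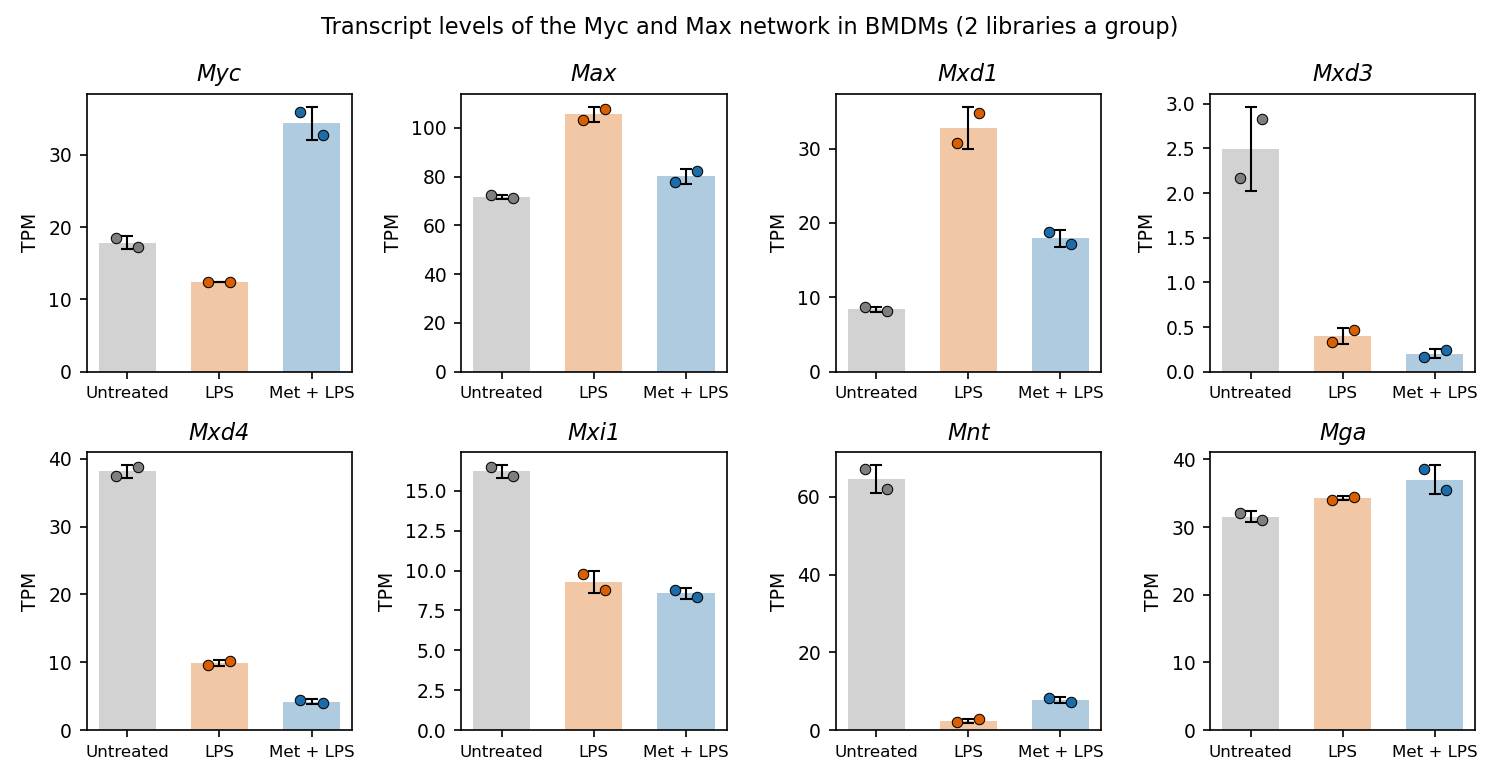
Transcript levels in TPM of the 8 network members by group, with bars for the mean, error bars for the SD and points for the 2 libraries (A left, B right). Mnt and Mxd4 are highest in untreated BMDMs, Mxd1 and Max in LPS, and Myc in Met + LPS, where its libraries sit at 36.0 and 32.7 TPM.

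To see how the network responded to LPS, the LPS libraries were compared with the untreated libraries by limma on log2(TPM + 1), a scale that understates changes of genes with few TPM. A change was called at a Benjamini-Hochberg adjusted p-value under 0.01 over all tested genes. Of the 8 members, 2 rose (Max and Mxd1), 5 fell (Myc, Mxd3, Mxd4, Mxi1 and Mnt) and Mga did not pass. LPS moved most of the transcriptome on this scale: 76.3% of the tested genes were called, 16.2% higher and 60.1% lower, and the libraries did not overlap for 91.6% of the genes, as for each of the 8 members. Over all tested genes the median change was -0.48, and -0.03 after the libraries were rescaled by the median ratio over genes, so each member is also given after this rescaling. After rescaling, 3 members were higher and 3 lower, compared with 29.9% and 28.3% of the tested genes. The study further asked for a log2 change of 2 or more in either direction, which Mnt alone passed, compared with 6.08% of the tested genes (3.72% higher and 2.37% lower).

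Myc itself (chromosome 15, 61985391 to 61990374) was at 18.5 and 17.2 TPM in the untreated and at 12.4 and 12.4 TPM in the LPS libraries. Both LPS libraries lay below both untreated libraries. The log2 fold change was -0.49 (standard error, SE, 0.06, limma adjusted p = 3.4e-04), almost the same as that of the median gene, and after rescaling it was -0.01 (limma adjusted p = 0.877). A fall of Myc beyond the shift shared by the tested genes was thus not detectable, with an SE of 0.06 after rescaling. The 95% confidence interval before rescaling, -0.64 to -0.34, takes in the median change of -0.48 over all tested genes.

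Max, the shared dimerization partner, rose. Max (chromosome 12, 76937269 to 76962201) was at 72.3 and 71.1 TPM in the untreated and at 103 and 108 TPM in the LPS libraries. This is 1.47 times the untreated mean, a log2 fold change of 0.55 (SE 0.04, limma adjusted p = 2.7e-05), and 1.05 after rescaling.

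Among the repressive partners, Mxd1 rose while Mnt, Mxd4, Mxi1 and Mxd3 fell. Mxd1 (chromosome 6, 86647042 to 86669161) was at 8.65 and 8.13 TPM in the untreated and at 30.7 and 34.8 TPM in the LPS libraries. Both stimulated libraries were far above both untreated libraries, with a 3.91-fold higher mean and a log2 fold change of 1.84 (SE 0.08, limma adjusted p = 1.9e-06), or 2.31 after rescaling. Mnt (chromosome 11, 74830920 to 74845725), the most broadly expressed Myc antagonist, was at 67.1 and 62.0 TPM in the untreated and at 1.99 and 2.81 TPM in the LPS libraries. Its mean was 26.9-fold lower after LPS, and only 8 of the 12755 tested genes had a lower log2 fold change than its -4.28 (SE 0.12, limma adjusted p = 3.3e-07). The fall rests on 2359 and 2055 reads in the untreated and 70 and 95 reads in the LPS libraries, and it was -3.82 after rescaling.

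Mxd4 (chromosome 5, 34173883 to 34187720) was at 37.5 and 38.8 TPM in the untreated and at 9.54 and 10.3 TPM in the LPS libraries. Its mean was 3.85-fold lower, a log2 fold change of -1.85 (SE 0.07, limma adjusted p = 1.2e-06) and -1.36 after rescaling. Mxi1 (chromosome 19, 53310506 to 53375810) was at 16.5 and 15.9 TPM in the untreated and at 9.77 and 8.78 TPM in the LPS libraries. Its log2 fold change of -0.74 (SE 0.07, limma adjusted p = 7.0e-05) shrank to -0.27 after rescaling, where it no longer passed (limma adjusted p = 0.0116). Mxd3 (chromosome 13, 55325168 to 55329823), a member best known from cells in S phase, was at 2.17 and 2.83 TPM in the untreated and at 0.333 and 0.463 TPM in the LPS libraries. Its log2 fold change of -1.32 (SE 0.16, limma adjusted p = 2.5e-04; -1.03 after rescaling) rests on 39 and 48 reads in the untreated and 6 and 8 reads in the LPS libraries. Mxd3 also overlaps the abundant gene Prelid1 (123 to 208 TPM) on the opposite strand, and whether reads were counted by strand is not given in the sources used here.

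Mga (chromosome 2, 119897228 to 119969581), which carries a T-box domain beside its Max-binding region, was at 32.1 and 31.0 TPM in the untreated and at 34.1 and 34.5 TPM in the LPS libraries. The LPS libraries were slightly higher, and the log2 fold change of 0.12 (95% confidence interval -0.01 to 0.24, limma adjusted p = 0.0755) did not pass. Against the shared shift it was higher, at 0.61 after rescaling (limma adjusted p = 7.0e-05).

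**Figure D2:**
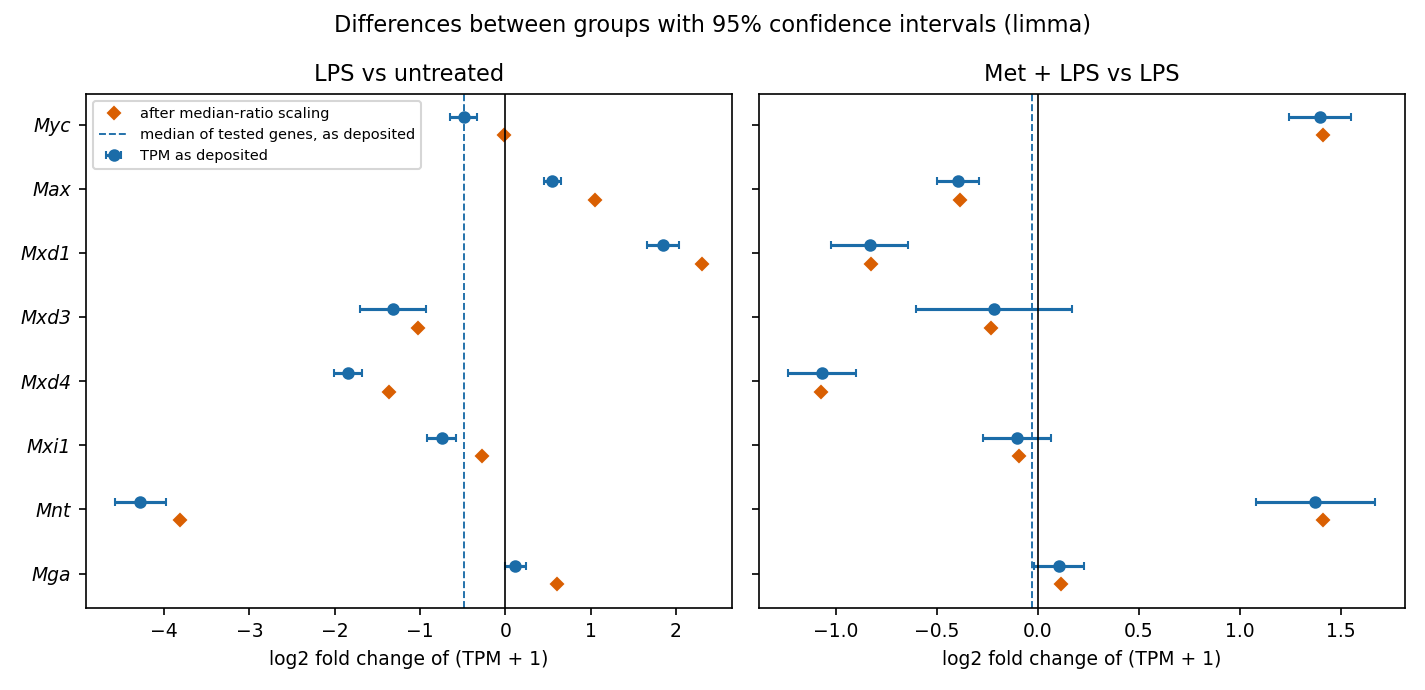
Log2 fold changes of the 8 members for LPS vs. untreated (left) and Met + LPS vs. LPS (right), with points and 95% confidence intervals from limma on log2(TPM + 1), diamonds after median-ratio scaling and a dashed line at the median of all tested genes. The rescaling moves every member up in the left panel, where Myc goes from -0.49 to -0.01, and hardly at all in the right panel.

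Next, the Met + LPS libraries were compared with the LPS libraries to see which members metformin pretreatment altered. Of the 8 members, 2 were higher in Met + LPS (Myc and Mnt), 3 were lower (Max, Mxd1 and Mxd4), and Mxd3, Mxi1 and Mga did not pass. Over all tested genes 32.6% were called, 14.5% higher and 18.0% lower, and the libraries did not overlap for 73.8% of the genes and for 7 of the 8 members, Mxi1 being the exception. With the study's cut-off on the absolute log2 fold change, 0.7, Myc, Mnt, Mxd1 and Mxd4 passed, which is 4 of 8 compared with 8.28% of the tested genes (4.19% higher and 4.09% lower). The members were chosen with earlier results of these data known, so this contrast is description only. The median over all tested genes was -0.03, and rescaling changed no call of a member in this comparison.

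Myc was at 12.4 and 12.4 TPM in the LPS libraries (257 and 246 reads) and at 36.0 and 32.7 TPM in the Met + LPS libraries (739 and 787 reads). Both pretreated libraries lay above all 4 other libraries. The mean was 2.77-fold higher than in LPS, a log2 fold change of 1.40 (SE 0.06, limma adjusted p = 2.1e-05), and 113 of the 12755 tested genes had a higher one. Leaving out each of the 6 libraries in turn kept it between 1.33 and 1.46.

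Mnt was at 1.99 and 2.81 TPM in the LPS and at 8.23 and 7.30 TPM in the Met + LPS libraries. Its mean was 3.24-fold higher with metformin pretreatment, a log2 fold change of 1.38 (SE 0.12, limma adjusted p = 2.4e-04). The pretreated libraries nonetheless remained far below the untreated libraries.

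Mxd1 and Mxd4 were both lower in Met + LPS than in LPS, although LPS had moved them in opposite directions. Mxd1 was at 30.7 and 34.8 TPM in the LPS and at 18.8 and 17.1 TPM in the Met + LPS libraries, which lay between the untreated and the LPS libraries. Its log2 fold change was -0.83 (SE 0.08, limma adjusted p = 2.9e-04). Mxd4 was at 9.54 and 10.3 TPM in the LPS and at 4.44 and 3.97 TPM in the Met + LPS libraries, the lowest of all 6. Its mean was 2.35-fold lower than in LPS, a log2 fold change of -1.07 (SE 0.07, limma adjusted p = 7.0e-05).

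Max was at 103 and 108 TPM in the LPS and at 77.9 and 82.3 TPM in the Met + LPS libraries, which lay just above the untreated libraries. Its log2 fold change of -0.39 (SE 0.04, limma adjusted p = 5.1e-04) was short of the cut-off of 0.7. The remaining members differed by less than the test could call. Mxi1 was at 9.77 and 8.78 TPM in the LPS and at 8.81 and 8.32 TPM in the Met + LPS libraries, a log2 fold change of -0.10 with a 95% confidence interval of -0.27 to 0.07. Mga was at 34.1 and 34.5 TPM in the LPS and at 38.5 and 35.5 TPM in the Met + LPS libraries, with an interval of -0.02 to 0.23. Mxd3 was at 0.333 and 0.463 TPM in the LPS and at 0.168 and 0.238 TPM in the Met + LPS libraries, which hold 3 and 5 reads, so that its interval of -0.60 to 0.17 is wide.

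Compared with untreated BMDMs, which share libraries with both comparisons above, Met + LPS left 3 members higher and 4 lower, where 75.1% of the tested genes were called (16.3% higher and 58.8% lower). After rescaling all 8 were called, 4 higher and 4 lower, compared with 32.5% and 30.7% of the tested genes. The libraries did not overlap for any member, as for 90.7% of the tested genes. Myc was 1.92 times its untreated mean, a log2 fold change of 0.91 (limma adjusted p = 1.7e-05) against a median of -0.48 for all tested genes, and 1.40 after rescaling. Mxd1 was higher by 1.01, and Mxd4, Mnt, Mxd3 and Mxi1 had log2 fold changes of -2.91, -2.90, -1.53 and -0.85. Mga was higher by 0.22 (limma adjusted p = 0.00626), a call that was lost in 5 of the 6 fits that left out a library (without either untreated library, either LPS library or Met + LPS library A). There its adjusted p-value in limma reached 0.0487. Max, with 0.16 (limma adjusted p = 0.0118), did not pass and did after rescaling, at 0.67 (limma adjusted p = 1.7e-05).

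To describe the balance of the network within a library, the TPM of each Max partner was expressed in percent of the summed TPM of the 7 partners among the members. The sum leaves out Mycl, another Max partner that is described below. This ratio does not change when a library is rescaled, and it concerns transcripts and not proteins. Myc made up 10.1% and 9.79% of the partner transcripts in untreated BMDMs, 12.6% and 11.9% after LPS and 31.3% and 31.1% after Met + LPS. The shares of Myc did not overlap between the groups in this sum and lay furthest apart between Met + LPS and the rest, with means of 9.96% ± 0.245, 12.2% ± 0.452 and 31.2% ± 0.139 (SD, n = 2 each). With 2 libraries against 2, the two-sided exact permutation test gives p = 0.333 for each pair of groups, the smallest it allows. With Mycl in the sum, a choice made after seeing the data, the untreated and LPS shares of Myc were no longer apart beyond their spread (9.95% ± 0.244 and 10.4% ± 0.361, exact permutation p = 0.667), and that in Met + LPS was 28.1% ± 0.586.

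The transcripts of Mnt went from 36.0% ± 1.05 of the partners in untreated BMDMs to 2.36% ± 0.491 in LPS and 7.05% ± 0.158 in Met + LPS. Those of Mxd1 went from 4.68% ± 0.0810 to 32.3% ± 1.67 and 16.3% ± 0.0309, so that Mxd1 took a share in LPS close to the one Mnt had in untreated cells. Mxd4 held 21.3% ± 1.06, 9.76% ± 0.151 and 3.82% ± 0.0665. Together the repressive partners Mxd1, Mxd3, Mxd4, Mxi1 and Mnt made up 72.4% ± 0.244 in untreated BMDMs, 53.9% ± 1.37 in LPS and 35.2% ± 0.0200 in Met + LPS (SD, n = 2 each). Mga, the Polycomb-linked partner left out of this sum, held 17.6% ± 0.000230, 33.8% ± 0.921 and 33.6% ± 0.159 in the same order. The summed partners amounted to 250% ± 3.52 of the TPM of Max in untreated BMDMs, 96.0% ± 0.644 in LPS and 138% ± 13.9 in Met + LPS. With Mycl they amounted to 250% ± 3.54, 113% ± 0.523 and 153% ± 13.0, so that the partners in LPS were below Max without Mycl and above it with Mycl.

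**Figure D3:**
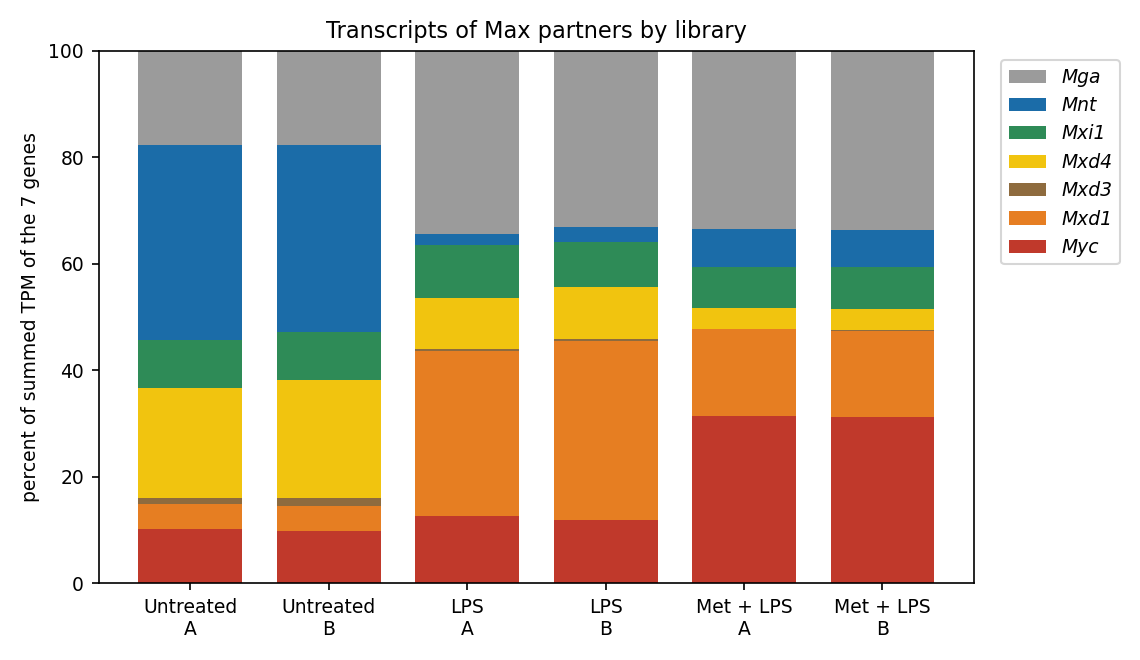
Percent of the summed TPM of the 7 Max partners taken by each gene, in a stacked bar for each of the 6 libraries. Mnt fills 36.0% on average in the untreated libraries, Mxd1 32.3% in the LPS libraries and Myc 31.2% in the Met + LPS libraries. Mga fills 17.6%, 33.8% and 33.6% in the same order, the largest mean share in LPS and in Met + LPS.

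Beyond the members, a list of 5 genes holds the Myc paralogs Mycl and Mycn, the Max-like protein Mlx and its partners Mlxip and Mlxipl. Of these, 3 passed the filter, and with LPS 1 was higher, 1 lower and 1 not called. Of all tested genes, 16.2% were higher and 60.1% lower. After rescaling 2 of the 3 were higher and 0 lower, compared with 29.9% and 28.3% of the tested genes. Mycl, a paralog of Myc that is known from dendritic cells, was at 0.130 and 0.104 TPM in the untreated (4 and 3 reads), 18.0 and 18.5 TPM in the LPS and 11.1 and 12.9 TPM in the Met + LPS libraries. It rose with LPS by a log2 fold change of 4.11 (SE 0.09, limma adjusted p = 9.5e-08) and was lower in Met + LPS than in LPS by -0.57 (limma adjusted p = 0.00244), the opposite order to that of Myc. In LPS libraries the level of Mycl was thus above that of Myc, and in Met + LPS libraries it was below. Mycn had at most 1 read in any library, as did Mlxipl. Mlx, the partner of the glucose-responsive Mondo proteins, had a log2 fold change of -0.38 with LPS (limma adjusted p = 6.96e-04) that turned to 0.12 after rescaling and did not pass there (limma adjusted p = 0.0897).

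The cofactors through which the network acts were mostly lower in LPS, as was the median gene. Of 12 genes listed as Myc coactivators, 8 were lower with LPS and 4 were not called. This share was near the 60.1% of all tested genes that were lower. The list median was -0.36 against -0.48 for all tested genes. After rescaling 4 coactivators were higher and 3 lower, compared with 29.9% and 28.3% of the tested genes. The largest falls were those of the acetyltransferase gene Ep300 (-0.99), the Myc-binding scaffold gene Trrap (-0.98) and the chromatin remodeler gene Bptf (-0.83), and these remained called after rescaling (-0.49, -0.49 and -0.33). In Met + LPS vs. LPS, 4 of the 12 were higher and 2 lower, with a list median of 0.10. There, 14.5% of all tested genes were higher and 18.0% lower. The higher genes included Zbtb17 (0.45) and the helicase gene Ruvbl2 (0.39), and the lower ones Ep300 (-0.39). Zbtb17 encodes the Myc-binding factor Miz1, which is better known for repression together with Myc than as a coactivator.

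Of 10 corepressor genes of the Mxd proteins and Mnt, 3 were higher and 6 lower with LPS (median -0.30), and 4 higher and 2 lower after rescaling (median 0.20). The shares of all tested genes were 16.2% higher and 60.1% lower, and 29.9% and 28.3% after rescaling. Sap30, a subunit of the Sin3 complex, went from 73.9 TPM in untreated BMDMs to 404 TPM in LPS, a log2 fold change of 2.44, and was at 294 TPM in Met + LPS. The Sin3 scaffold gene Sin3a had a log2 fold change of -0.73 with LPS (-0.23 after rescaling). In Met + LPS vs. LPS, Ncor1 was higher (0.57) and Sap30 (-0.46), Hdac1 (-0.36) and Hdac2 (-0.26), both deacetylase genes, were lower, with a list median of -0.10.

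Of 10 partners of Mga in its Polycomb complex, 9 were lower with LPS and Rnf2, a ubiquitin ligase that other Polycomb complexes share, was higher (1.17), with a list median of -0.74. Of all tested genes, 60.1% were lower and 16.2% higher, with a median of -0.48. Pcgf6, L3mbtl2 and E2f6, subunits typical of the complex that holds Mga, had log2 fold changes of -1.29, -1.25 and -1.17, and -0.83, -0.79 and -0.70 after rescaling. After rescaling, 5 of the 10 were still lower by the test (median -0.25), compared with 28.3% of the tested genes. In Met + LPS vs. LPS, 3 were higher and 7 were not called (median 0.07), compared with 14.5% of the tested genes higher and 18.0% lower. Pcgf6 (0.69) and Rybp (0.54) were ahead of Wdr5 (0.20), a gene that is also on the coactivator list.

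Of 14 genes that control the turnover of Myc protein, 11 were lower and 2 higher with LPS, and 7 were lower and 3 higher after rescaling, with medians of -0.63 and -0.14. Of all tested genes, 60.1% were lower and 16.2% higher, and 28.3% and 29.9% after rescaling. Fbxw7, whose ubiquitin ligase recognizes phosphorylated Myc, was at 30.2 and 28.3 TPM in the untreated, 6.82 and 6.85 TPM in the LPS and 15.7 and 14.0 TPM in the Met + LPS libraries. Fbxw7 changed by -1.95 with LPS (-1.47 after rescaling) and 1.01 in Met + LPS vs. LPS (limma adjusted p = 9.3e-05). Gsk3b, the kinase that phosphorylates Myc for this ligase, was at 46.9 and 47.6, 32.3 and 32.3, and 64.8 and 63.1 TPM in the same order. It was lower with LPS by -0.54, which shrank to -0.04 after rescaling, and higher in Met + LPS than in LPS by 0.96 (limma adjusted p = 1.4e-05). Fbxw7 and Gsk3b were thus the 2 of 14 genes higher in Met + LPS than in LPS (list median -0.06), while Aurka, Trim32 and Stub1 were lower (-0.47, -0.33 and -0.27). These counts are near the shares of all tested genes, 14.5% higher and 18.0% lower.

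Of 30 genes that Myc is known to induce, 6 were higher and 18 lower with LPS, compared with 16.2% and 60.1% of the tested genes. The median log2 fold change of the list was -0.25. After rescaling the order turned over to 18 higher and 2 lower (median 0.24), compared with 29.9% and 28.3% of the tested genes. The largest increases, which did not depend on the scaling, were those of Ccnd2, a cyclin of G1 phase (4.58), Rrs1, a ribosome assembly factor (1.79), Odc1, the rate-limiting enzyme of polyamine synthesis (1.61), and Wdr43, a nucleolar protein (1.26). In Met + LPS vs. LPS, 11 of the 30 were higher, 5 lower and 14 not called, compared with 14.5% of all tested genes higher and 18.0% lower. The median was 0.16 against -0.03 for all tested genes, and 2 of the 30 (Hspd1 and Gnl3) passed the cut-off of 0.7, compared with 8.28% of the tested genes. Hspd1, a mitochondrial chaperonin, was 0.93 higher, Gnl3, which encodes the nucleolar protein nucleostemin, 0.74, Npm1, which encodes nucleophosmin, 0.60 and Ncl, which encodes nucleolin, 0.56. The genes that were lower were Ccnd2 (-0.53), Wdr43 (-0.44), Nme1 (-0.35), Ldha (-0.35) and Bop1 (-0.21), and Bop1 did not pass after rescaling. Odc1 differed little, averaging 96.2 TPM with LPS and 95.8 TPM with metformin added, a change of -0.01. The hexamer CACGTG was in the promoter windows of 7 of the 24 listed genes that have one (29.2%), compared with 12.2% of the tested genes. Hspd1, Wdr43, Ldha and Nme1 were among the 7, so that it occurred in targets that were higher and in targets that were lower. Of the genes that Myc is known to repress, described below, 3 of the 9 with a window held it (33.3%).

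Of 10 genes that Myc is known to repress, 5 were higher and 5 lower with LPS, with a median of 0.19 (5 higher and 3 lower after rescaling, median 0.70), and 3 were higher and 2 lower in Met + LPS vs. LPS, with a median of -0.02. Of all tested genes, 16.2% were higher and 60.1% lower with LPS (29.9% and 28.3% after rescaling). In Met + LPS vs. LPS these shares were 14.5% and 18.0%. Cdkn1a, the cyclin-dependent kinase inhibitor p21, changed by 4.14 with LPS and -0.56 in Met + LPS vs. LPS. Klf4 and Cebpa, transcription factors of myeloid differentiation, had -1.20 and -3.72 with LPS and 1.66 and 1.17 in Met + LPS vs. LPS, which left Cebpa at 19.6 TPM compared with 119 TPM in untreated BMDMs. The stress-inducible growth arrest gene Gadd45a was the highest of the list in Met + LPS vs. LPS, at 3.82. Both lists of targets were written from general knowledge of other cells, with earlier results of these data known. They describe transcripts and do not measure the activity of Myc here, and their counts beside all tested genes are description only.

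**Figure D4:**
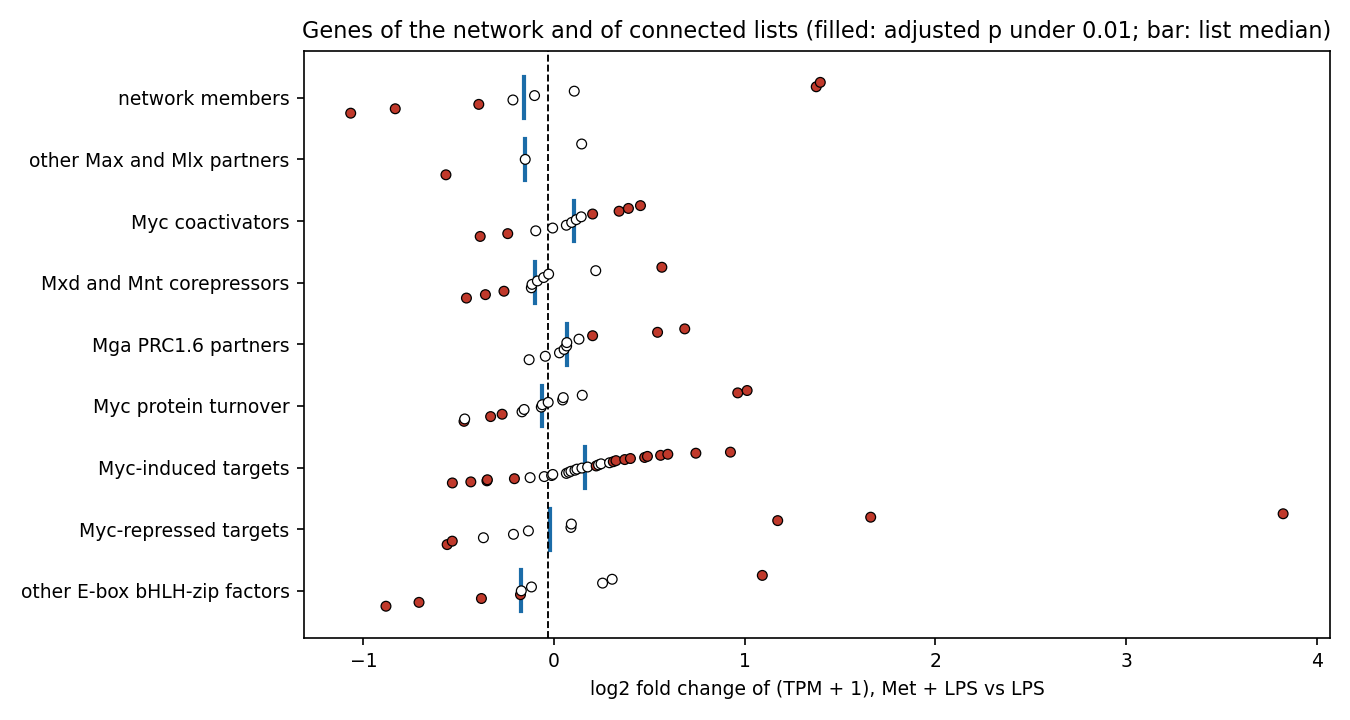
Log2 fold changes of (TPM + 1) for Met + LPS vs. LPS, with a point for each tested gene of the network and the 8 connected lists, filled where the adjusted p-value in limma is under 0.01, a bar at each list median and a dashed line at the median of all tested genes (-0.03). The median of the Myc-induced targets lies at 0.16 with members on both sides, and Gadd45a stands furthest right at 3.82.

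As Myc is tied to proliferation, 8 proliferation markers were read beside it. They summed to 769 to 774 TPM in the untreated, 850 to 915 TPM in the LPS and 785 to 802 TPM in the Met + LPS libraries. The larger sum in LPS was carried by Mki67, which averaged 60.4 TPM in untreated BMDMs and 208 TPM in LPS, whereas 6 of the 8 markers were lower and 1 higher with LPS (median -0.72), and 2 were lower and 2 higher after rescaling (median -0.24). With LPS 60.1% of all tested genes were lower and 16.2% higher, and 28.3% and 29.9% after rescaling. In Met + LPS vs. LPS 3 markers were lower and 5 were not called (median -0.22), where 18.0% of all tested genes were lower. The 3 were Rrm2 (-1.39), Mcm5 (-0.79) and Mki67 (-0.59), while Myc was higher.

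Finally, the genes whose profiles over the 6 libraries were most like those of the members were listed for the 5 members whose group means spanned at least 1 on the log2 scale. Likeness was the root mean square difference between centred log2(TPM + 1) values, which also takes in the size of the change on that scale. Where a level is near 1 TPM, as for Mxd3, the added 1 compresses the change. The genes listed for Mxd3 fell by a smaller factor in TPM than Mxd3 did. Dmxl2, Flrt2 and Mllt3 were closest to Myc, with differences of 0.069, 0.072 and 0.075. Flrt2, for example, averaged 18.1, 13.2 and 32.6 TPM in untreated, LPS and Met + LPS libraries, compared with 17.9, 12.4 and 34.4 TPM for Myc. The genes closest to Mxd1 were Mier3 (0.043), Myo10 and Rin3, those closest to Mxd4 were Rassf2 (0.080), Sgsh and Zfyve28, and those closest to Mxd3 were Sh3bp1 (0.051), Izumo4 and Sirt7. No gene came as close to Mnt, for which Zfp36l2 (0.178), Slc26a11 (0.178) and Foxo3 (0.182) ranked highest. Foxo3 averaged 68.9, 2.42 and 10.5 TPM in the 3 groups, compared with 64.5, 2.40 and 7.77 TPM for Mnt.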

How the data were processed

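Poly-A RNA of 6 BMDM libraries had been prepared with the Illumina TruSeq kit. Per the submitters' processing notes and the study's methods, reads were mapped to GRCm38 with STAR 2.6.1d and counted per gene by featureCounts (Subread 1.6.3), and the values the authors deposited are TPM per gene, 1 column for each library. How counts became TPM is not given in the sources used here. The 12755 genes that reached 1 TPM in 2 or more libraries were compared on log2(TPM + 1) with limma 3.58.1 (R 4.3.3), all 6 libraries in a common fit with a mean-variance trend and no covariate, and Benjamini-Hochberg adjustment over all tested genes. DESeq2, which the study applied to counts, was not used because the values are TPM. The script was tested on simulated data. Reads were recovered with exon lengths of GENCODE M21, which matched 54495 genes. They carry no molecular identifiers. Between the 2 libraries of a group the reads spread by more than counting error. The chi-square per degree of freedom was 1.94 in the untreated, 3.44 in the LPS and 3.63 in the Met + LPS libraries. The members and gene lists were chosen with earlier results of these data known. Genes named are the members, up to 4 per list and comparison with the largest called and non-overlapping changes (further ones were added after their values were seen, and 1 result is not reported here), and the 3 genes nearest in profile to a member. The alternatives were another pseudocount, filters, median-ratio scaling, a fit of the compared groups, the replicate letter as a block, no trend, an adjusted p-value of 0.05, each library left out, and limma voom on the recovered reads, an alternative added after seeing the data, as was Mycl in the partner sum.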

Additional observations from a re-analysis of the deposited data

How the results depend on the processing

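No log2 fold change of a member changed its sign under any of the 15 alternative settings, of which the minimum of 5 TPM left Mxd3 untested, and 318 of the 333 changes recomputed under the 14 settings that keep the adjusted p-value of 0.01 stayed on their side of it. The number of members called moved by no more than 1. With the cut-off of 2 for LPS vs. untreated, 2 members instead of 1 passed with a pseudocount of 0.1 and with voom on recovered reads (Mxd3 beside Mnt), and 2 after median-ratio scaling (Mxd1 beside Mnt). Without Mga in the sum, Myc made up 12.1%, 18.5% and 47.0% of the partner transcripts in untreated, LPS and Met + LPS libraries. With Mycl in the sum, added after seeing the data, Myc made up 10.4% in LPS and 28.1% in Met + LPS, and the partners summed to 113% and 153% of Max. With the replicate block, 9641, 3956 and 9436 of the tested genes were called in LPS vs. untreated, Met + LPS vs. LPS and Met + LPS vs. untreated, against 9734, 4156 and 9576 without it, and no call of a member changed. The differences between libraries A and B correlated between groups at -0.0037 to 0.028 across genes, so no shift shared by a letter was seen. Whether a letter marks a shared culture or animal cannot be told from these correlations. For Met + LPS vs. LPS, the number of tested genes called fell to between 2561 and 2759 when a library was left out and to 2662 when only the compared groups were fitted, settings with fewer residual degrees of freedom. Depth limits Mxd3 in stimulated cells and Mycl in untreated cells, with at most 8 and 4 reads per library.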

Other observations

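Other transcription factors that bind E-boxes through the same kind of domain, but do not use Max, also differed between the groups. Of 9 such genes, 3 were higher and 5 lower with LPS (median -0.45), compared with 16.2% of all tested genes higher and 60.1% lower, and 3 were higher and 4 lower after median-ratio scaling (median 0.05). The cut-off of 2 was passed by 4 of the 9, compared with 6.08% of the tested genes. Tfec and Mitf, factors of the MiT family, went from 11.4 and 36.7 TPM in untreated BMDMs to 170 and 186 TPM in LPS, log2 fold changes of 3.79 and 2.31. Tfeb, the family member known for lysosomal genes, went the other way, from 52.8 to 4.42 TPM (-3.31), and Tfap4, a factor that Myc is known to induce, went from 6.53 to 0.557 TPM (-2.27). In Met + LPS vs. LPS, Tfeb was higher (10.6 TPM, a log2 fold change of 1.09), and Usf1 (-0.88), the sterol regulator Srebf2 (-0.71), Srebf1 (-0.38) and Mitf (-0.18) were lower, of which Mitf no longer passed after median-ratio scaling. None of the 7 of these genes with a promoter window held CACGTG, where 12.2% of the tested genes did.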
